A study of Mus musculus with 5 samples.

Results

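A set of 182 genes was well covered by reads in every library of lymph node regulatory T cells (Tregs) and was at or near 0 in both libraries of skin Tregs. The members were the genes under 1 CPM in skin library 1 and skin library 2 that had 20 CPM or more in each of lymph node libraries 1, 2 and 3. CPM, for counts per 1e6, is a gene's count divided by the sum of the gene counts of its library and multiplied by 1e6, with no further scaling. The 182 members were 182 of the 24084 genes in the table and 3.1% of the 5877 genes that reached 20 CPM in each lymph node library. A gene is called absent from a skin library below when it was under 1 CPM there, which at this depth still allowed up to 10 counts. The members were thus chosen by the CPM of these same 5 libraries, so their levels and folds are a description and carry no test.

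The libraries were made from Tregs of mice 13 days old, of the Foxp3-DTR/GFP line, given as strain Foxp3-DTR in the labels. In this line the diphtheria toxin receptor and a green fluorescent protein are driven by the Foxp3 gene, and both tissues carry the same allele. There were 2 libraries from skin and 3 from skin-draining lymph nodes, and the labels name no treatment. RNA was column-purified from sorted, frozen cells and amplified into cDNA with the SMARTer ultra-low-input kit. Sort markers, cell numbers and animal numbers per library were not stated in the sources used, so the spread between libraries may be technical.

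Tregs are CD4 T cells that restrain immune responses and need the transcription factor Foxp3. Those of lymph nodes include many resting cells that recirculate between blood and lymph, whereas those of skin mostly have the features of activated effector cells. Type I and type II interferons switch on a shared set of antiviral genes in most cells, T cells included, and proteins with C2H2 zinc fingers form a large family of DNA-binding factors, many of which silence transposons.

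Foxp3 itself was at 77.2 and 113 CPM in the skin libraries, against 89.5, 98.5 and 101 CPM in the lymph node libraries. Il2ra, which encodes CD25, was at 1095 and 1246 CPM in skin and at 1236, 1513 and 1222 CPM in lymph node. The 9 T cell markers measured were all at 1 CPM or more in every library and summed to 7188 and 7553 CPM in skin, against 11754 to 13638 CPM in lymph node. Sums of gene counts were 10787378 and 10468795 in skin, against 12305644 to 14595018 in lymph node, and 9894 and 9192 genes had a count in skin, against 12173 to 12540 in lymph node. The 21 myeloid markers measured summed to 7903 and 9981 CPM in skin, with none of them without a count in skin, against 243 to 644 CPM in lymph node. The 13 B cell markers measured summed to 21.9 and 84.5 CPM in skin, where 11 of them had no count, against 141, 103 and 282 CPM in lymph node. Immediate early genes, which react to cell handling, summed to 4462 and 4290 CPM in skin, against 1467 to 1956 CPM in lymph node. The part of these differences in the absence of members was not tested; leaving lymph node library 3 out of the rule gave 206 genes. In such bulk samples, fewer cells expressing a gene and less RNA per cell cannot be told apart.

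Of the 182 members, 95 had no count in either skin library, 55 had 1 to 3 counts over both and 32 had more than 3. Skin library 1 had no count for 125 members and skin library 2 none for 133. With 3 counts as the floor over both skin libraries together, which is 0.141 CPM, the 95 members without a count were at least 150.3-fold to at least 1444-fold lower in skin, with a median bound of 261-fold. Floors and counting intervals cover counting error only, since amplified reads are not independent molecules. Among lymph node libraries the highest of the 3 was under 2 times the lowest in 159 of 182 members, and the coefficient of variation was under 50% in 178 of 182. The minimum of 20 CPM in each lymph node library favours a small spread. The median coefficient of variation was 20.4% for members, against 18.5% over all 5877 genes that passed that minimum. At the edges of the rule, the lowest lymph node values inside it included 20.01 CPM (Zfp738) and 20.15 CPM (C1qtnf6), and the highest skin values inside it included 0.927 CPM (Gin1) and 0.860 CPM (Ifit2). Those just outside included Cyth3, Wdr59 and Myo6, with highest skin values of 1.02, 1.02 and 1.11 CPM, and Dzip1 and Cnr2, with lowest lymph node values of 19.98 and 19.91 CPM.

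Among named genes, the members with the highest lymph node CPM were led by surface and receptor genes of lymphocytes. Itm2a, a membrane protein induced when thymocytes are positively selected, was at 0 and 0.382 CPM in skin, against 685, 600 and 765 CPM in lymph node. Gpr83, a G protein-coupled receptor that has long served as a Treg signature gene in mice, was at 0.0927 and 0 CPM in skin, against 529, 657 and 848 CPM in lymph node. Gpr18, a lymphocyte receptor of the same class, was at 0 and 0.287 CPM in skin, against 229, 201 and 241 CPM in lymph node. For each of these genes every lymph node library held 201 CPM or more while the skin libraries shared 1 to 4 counts. The single skin count of Gpr83 put it 14452-fold lower in skin, with an exact 95% counting interval of 2594 to 570853. Per kilobase of exon, Itm2a had the highest lymph node level of all members, at 392 CPM per kb, ahead of Gpr18 at 149 and Gpr83 at 133 CPM per kb.

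Gimap7, a GTPase of the family that supports lymphocyte survival, had no count in skin, against 270, 144 and 189 CPM in lymph node, which made it at least 1444-fold lower in skin. Ssbp2, a cofactor of LIM-domain transcription complexes, had no count in skin, against 184, 156 and 195 CPM in lymph node. Satb1, an organiser of chromatin in thymocytes and T cells, had no count in skin, against 142, 144 and 168 CPM in lymph node. These 3 genes were without a count in both skin libraries, while each lymph node library held 142 CPM or more of every one of them. Treml2, a receptor of lymphocytes and myeloid cells, was at 0.0927 and 0 CPM in skin, against 154, 165 and 174 CPM in lymph node. Cd160, a receptor that binds herpesvirus entry mediator, had no count in skin, against 128, 111 and 119 CPM in lymph node. Gata1, best known as the master regulator of red blood cell development, had no count in skin, against 91.3, 134 and 134 CPM in lymph node, and was at least 844-fold lower in skin. Of the 17 erythroid and megakaryocyte markers, Gata1 included, 10 had no count in any library of either tissue, Klf1 and the 6 globin genes among them. The platelet genes Gp9 and Itga2b had no count in skin, against 0, 0 and 1.03 CPM for Gp9 and 0, 1.06 and 2.12 CPM for Itga2b in lymph node libraries 1, 2 and 3. All 17 markers summed to 111 and 203 CPM in skin, against 93.7, 143 and 143 CPM in lymph node. Gata1 itself, chosen by the rule, made up 91.3, 134 and 134 CPM of the lymph node sums. The part of such cells in the level of Gata1 was not tested.

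**Figure D1:**
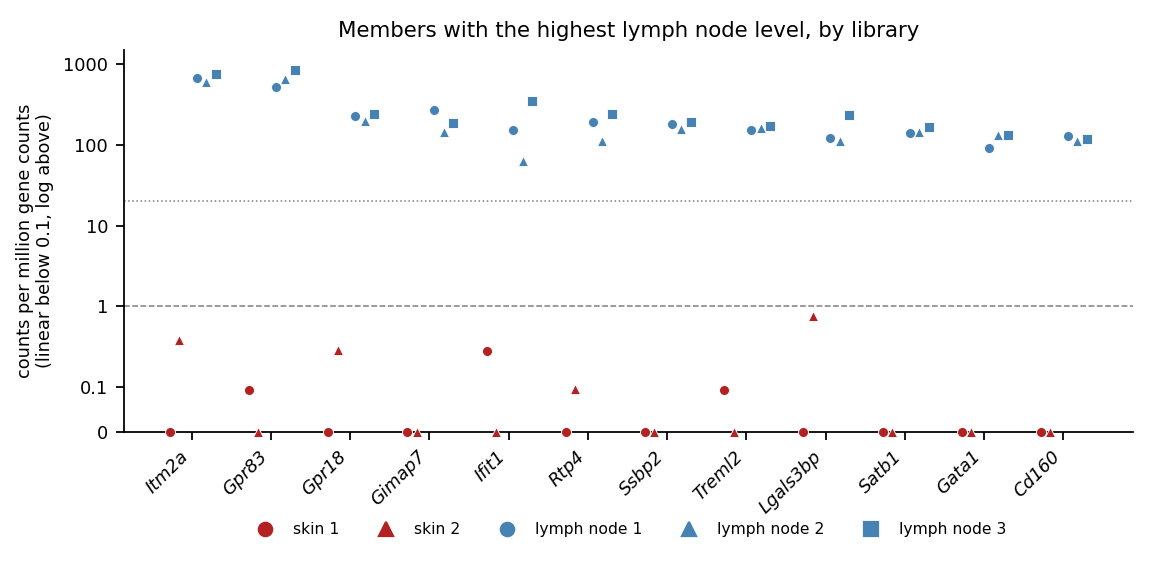
CPM of the 12 named members with the highest lymph node mean, 1 point per library, with 2 skin libraries in red and 3 lymph node libraries in blue; the vertical axis is linear below 0.1 and logarithmic above, and the dashed and dotted lines mark the limits of 1 and 20 CPM. Skin points lie at 0 or under 1 CPM, and lymph node points lie between 64.2 CPM (Ifit1 in lymph node library 2) and 848 CPM (Gpr83 in lymph node library 3).

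Gata1 and Satb1 belong, with Ikzf4 (Eos), Irf4 and Lef1, to a group of factors described as acting redundantly alongside Foxp3 on the mouse Treg expression programme. This group was looked up after the values were seen. Ikzf4 was at 43.3 and 169 CPM in skin, against 183, 322 and 218 CPM in lymph node. Irf4 was at 112 and 5.64 CPM in skin, against 107, 149 and 83.2 CPM in lymph node. Lef1 was at 79.8 and 59.8 CPM in skin, against 511, 523 and 586 CPM in lymph node. Of the 3 genes outside the set, Lef1 was lower in skin by edgeR's quasi-likelihood test with Benjamini-Hochberg adjustment over all genes (log2 fold change -2.90 ± 0.25 SE, adjusted p = 0.0224), and Ikzf4 and Irf4 did not pass it (adjusted p = 0.329 and 0.669). Gata1 and Satb1 were thus the members of that group without a skin count.

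Promoter sequences show what the upstream regions of the leading members look like and how unlike one another they are. The stretch of 250 bases before to 50 bases after the annotated start of the 5 named members highest in lymph node is given from RefSeq on GRCm38.p6, 5′ to 3′ on the gene's own strand. Capitals mark matches, on either strand, to any of 9 short motifs. Those of transcription factors were ETS, searched as CCGGAA, RUNX as TGTGGT, TCF/LEF as CTTTGA, FOX as TGTTTA and the E-box as CACGTG. The interferon response motif was GAAA and a further GAAA with any pair of bases between them. The GC box was GGGCGG and the TATA box TATAAA, and the CCAAT box was searched by the letters of its name. Itm2a lies on the minus strand at chrX:107403311-107403610 with 1 GC box match, and Gpr83 on the plus strand at chr9:14859960-14860259 with 1 TATA box match. Gpr18 lies on the minus strand at chr14:121915839-121916138 with 1 match each to TCF/LEF, FOX, interferon response and RUNX, the last of which overlaps the interferon response match in 1 capital run. Gimap7 lies on the plus strand at chr6:48718371-48718670 with 1 match each to RUNX, GC box and TCF/LEF, and Ifit1 on the plus strand at chr19:34640639-34640938 with 2 interferon response matches.
Itm2a: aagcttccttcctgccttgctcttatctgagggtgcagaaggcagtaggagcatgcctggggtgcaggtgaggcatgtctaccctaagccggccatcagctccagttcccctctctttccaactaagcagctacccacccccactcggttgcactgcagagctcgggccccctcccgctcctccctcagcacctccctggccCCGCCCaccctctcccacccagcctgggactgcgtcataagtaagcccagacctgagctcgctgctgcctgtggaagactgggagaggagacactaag
Gpr83: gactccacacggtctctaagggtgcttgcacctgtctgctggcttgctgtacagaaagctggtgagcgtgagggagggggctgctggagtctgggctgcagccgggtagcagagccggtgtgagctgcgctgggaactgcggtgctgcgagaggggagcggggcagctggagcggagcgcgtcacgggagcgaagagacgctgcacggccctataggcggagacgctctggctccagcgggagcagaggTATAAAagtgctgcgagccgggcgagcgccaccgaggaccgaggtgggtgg
Gpr18: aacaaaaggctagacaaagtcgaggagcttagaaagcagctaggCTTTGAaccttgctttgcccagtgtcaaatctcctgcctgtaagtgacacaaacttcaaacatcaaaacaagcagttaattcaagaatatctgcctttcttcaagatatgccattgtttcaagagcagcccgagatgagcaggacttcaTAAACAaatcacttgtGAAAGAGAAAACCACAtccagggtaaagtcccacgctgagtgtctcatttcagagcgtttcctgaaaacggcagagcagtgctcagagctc
Gimap7: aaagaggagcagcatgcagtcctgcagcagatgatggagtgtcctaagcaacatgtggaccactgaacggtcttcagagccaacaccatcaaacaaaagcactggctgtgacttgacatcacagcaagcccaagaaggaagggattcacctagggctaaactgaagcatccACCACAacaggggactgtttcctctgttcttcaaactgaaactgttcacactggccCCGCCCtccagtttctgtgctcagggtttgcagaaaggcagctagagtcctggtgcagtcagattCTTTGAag
Ifit1: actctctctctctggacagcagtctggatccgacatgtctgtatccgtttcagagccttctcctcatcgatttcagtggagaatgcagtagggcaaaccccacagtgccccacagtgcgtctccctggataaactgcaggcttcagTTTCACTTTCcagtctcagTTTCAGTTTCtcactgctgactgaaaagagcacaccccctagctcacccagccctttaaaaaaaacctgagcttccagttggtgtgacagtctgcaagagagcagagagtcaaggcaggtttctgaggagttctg

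A match is a run of letters and does not show that a factor binds there. The members' promoters are compared with others after the results by function.

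The function lists below were chosen with earlier results of these data known, so their shares and counts of calls are descriptions. The lymphoid residence and naive state list holds genes of recirculating and resting T cells. It had 29 genes at 20 CPM in each lymph node library, and 4 of them (13.8%) were members, against 3.1% of all such genes. The members were Ssbp2, Satb1, Ramp1 and Ccr9. Ramp1, the partner protein of the receptor for calcitonin gene-related peptide, was at 0.649 and 0 CPM in skin, against 30.2, 71.9 and 23.8 CPM in lymph node. Ccr9, the receptor for the gut and thymus chemokine Ccl25, had no count in skin, against 30.4, 41.1 and 51.8 CPM in lymph node. Ssbp2 and Ccr9 are also in the list of thymocyte markers, whose 9 genes had no count in either skin library. The list summed to 226, 222 and 280 CPM in lymph node. Most of these sums came from Ssbp2 and Ccr9, which the rule chose, with Ssbp2 alone at 184, 156 and 195 CPM. Lymph node libraries 1, 2 and 3 held 4, 6 and 5 of these 9 genes at 1 CPM or more, Ssbp2 and Ccr9 included. Rag1, Rag2 and Ptcra of that list were at 0 in every lymph node library. The part of immature thymocytes in these levels was not tested. Of the 34 tested genes of the list, members included, 14 were lower in skin by edgeR's test and 0 higher, against 5.3% lower and 2.4% higher of all 11437 tested genes. With the members left out it was 11 of 30 lower (36.7%), against 3.96% of all tested genes that are not members. At an unadjusted p under 0.05 the counts, members included, were 22 lower and 0 higher, against 3372 of all 11437 tested genes in either direction. DESeq2 called 21 lower and 0 higher, against 2145 lower and 1224 higher of 14248 genes. With the replicate number as a block, edgeR called 3 lower and 0 higher, against 10 lower and 11 higher of all genes. Tcf7, a factor of resting T cells, kept 1.95 and 7.83 CPM in skin, against 560, 501 and 692 CPM in lymph node.

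The G protein-coupled receptor list had 3 members among 29 genes (10.3%), Gpr83, Gpr18 and Ccr9, while 1 more was absent from skin library 1 only and 6 from skin library 2 only. The Treg identity list had 22 genes at 20 CPM, of which Gpr83 was the member (4.55%), and the T cell receptor and costimulation list had 41, of which Cd160 was the member (2.44%), against 3.1% of all genes. By edgeR's test 4 of the 23 tested Treg identity genes were higher in skin and 3 lower, Gpr83 included. Ctla4, an inhibitory receptor of that list, was at 2557 and 2102 CPM in skin, against 820, 702 and 650 CPM in lymph node (log2 fold change 1.74 ± 0.19 SE, adjusted p = 0.0271 by edgeR). Absence from skin thus touched a small part of the Treg identity list while other parts of it were higher in skin. Gimap7 was the member among 8 Gimap genes, of which Gimap6 was absent from skin library 2 only, and 4 of the 8 were called lower in skin.

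Interferon-inducible genes supplied 6 members among 58 genes at 20 CPM (10.3%). Ifit1, which binds viral RNA lacking a methylated cap, was at 0.278 and 0 CPM in skin, against 154, 64.2 and 354 CPM in lymph node. Rtp4, a receptor transporter protein induced by interferon, was at 0 and 0.0955 CPM in skin, against 191, 113 and 242 CPM in lymph node. Phf11c had no count in skin, against 96.3, 58.5 and 123 CPM in lymph node. Ifit2 was at 0 and 0.860 CPM in skin, against 66.8, 88.7 and 102 CPM in lymph node, and Trim30d and Oas1b, the last annotated as a polymorphic pseudogene, had no count in skin. All 6 were highest in lymph node library 3, and 4 of the 6 were lowest in lymph node library 2. Ifit1 had the largest coefficient of variation among lymph node libraries of all 182 members, 77.8%. Lymph node library 3 held the highest value of 75 of the 182 members (41.2%), and it is also the library with the B cell transcripts given above, whose part in these levels was not tested. Lgals3bp, a secreted glycoprotein also known to respond to interferon and outside the list, had the same order, with 0 and 0.764 CPM in skin, against 121, 112 and 234 CPM in lymph node.

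By edgeR's test 12 of the 75 tested interferon-inducible genes, members included, were lower in skin and 0 higher. Of the 69 that are not members 7 were lower (10.1%), against 3.96% of all tested genes that are not members. At an unadjusted p under 0.05 there were 29 lower and 4 higher, members included, against 3372 of all 11437 tested genes in either direction. DESeq2 called 24 lower and 4 higher, against 2145 lower and 1224 higher of 14248 genes. The limma-voom counts were 21 lower and 0 higher, against 1665 lower and 566 higher of all genes. With the replicate number as a block, edgeR called 0 lower and 0 higher, against 10 lower and 11 higher of all genes. Ifit1 and Ifit2 are neighbours on chromosome 19, 64.5 kb apart, and Phf11c lies 6.63 kb from Setdb2, another member. Ifit3, which lies in the same cluster and is outside the set because lymph node library 2 was under 20 CPM, was at 1.30 and 0 CPM in skin, against 43.0, 9.18 and 81.7 CPM in lymph node.

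Zinc finger factors gave the most members of any list that names a function, 13 of 134 genes (9.70%). First among them by lymph node CPM was Zfp868, with no count in skin, against 63.4, 55.6 and 82.4 CPM in lymph node. Zfp35 had no count in skin, against 61.3, 55.9 and 76.8 CPM in lymph node, and Zfp954 was at 0.0927 and 0 CPM in skin, against 73.5, 60.9 and 50.7 CPM in lymph node. The list's genes had a low median lymph node mean of 52.5 CPM, against 80.8 CPM over all 5877 genes. Among genes with a lymph node mean of 20 to 50 CPM, 10 of 59 zinc finger genes (16.9%) were members, against 125 of 1629 genes of that level (7.67%). From 50 to 100 CPM it was 3 of 48 (6.25%), against 40 of 1841 (2.17%), and at 100 CPM or more 0 of 27. By edgeR's test 47 of 345 tested zinc finger genes, members included, were lower in skin and 3 higher; 36 of the 332 that are not members were lower (10.8%), against 3.96% of all tested genes that are not members. Of the 13 members, Zfp119a and Zfp119b, Zfp35 and Zfp191, and Zfp58 and Zfp738 are pairs of neighbours within 200 kb; such families share similar sequences, and since only uniquely aligned reads entered the counts their absolute levels are uncertain.

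Genes that build or modify the translation machinery formed the next group. The list of tRNA modification and charging had 7 members of 92 genes (7.61%) and ribosome biogenesis 5 of 102 (4.90%). The tRNA list also counts the genes of diphthamide, which is made on a protein, with Dph7 and Dph2 among its members. Dph7, an enzyme of the diphthamide modification of elongation factor 2, had no count in skin, against 87.7, 75 and 71.0 CPM in lymph node. Dph2, which acts earlier in the same pathway, was at 0 and 0.191 CPM in skin, against 31.3, 66.4 and 73.8 CPM in lymph node. Of the other genes of the pathway, Dph3 was at 140 and 13.7 CPM in skin, against 63.2, 40.1 and 56.1 CPM in lymph node, while Dph5 was absent from skin library 2 only. Dph6 was at 25.5 and 4.49 CPM in skin, against 67.2, 85.2 and 49.9 CPM in lymph node. Dph1, too low in lymph node for the rule, was at 0 and 3.06 CPM in skin, against 6.87, 10.6 and 20.1 CPM in lymph node. Qtrt1, the catalytic subunit that inserts queuine into tRNA, was at 0.464 and 0 CPM in skin, against 70.9, 56.2 and 87.5 CPM in lymph node. Trmt2b, a mitochondrial tRNA methyltransferase, was at 0.185 and 0.287 CPM in skin, against 78.1, 63.7 and 84.8 CPM in lymph node. Iars2 and Wars2, the mitochondrial isoleucine and tryptophan tRNA ligases, were also members.

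Among ribosome biogenesis genes, Ppan had no count in skin, against 80.6, 72.2 and 81.6 CPM in lymph node. Bysl, needed for the small subunit, was at 0.464 and 0.0955 CPM in skin, against 37.8, 48.4 and 85.4 CPM in lymph node. Rpf1, Noc3l and Tsr2 were the other 3. By edgeR's test 15 of 146 genes of the tRNA list, members included, were lower in skin and 1 higher. Of the 139 that are not members 10 were lower (7.19%). Of 121 ribosome biogenesis genes 8 were lower and 0 higher, but 5 of the 8 are the members, and 3 of the other 116 were lower (2.59%), against 3.96% of all tested genes that are not members. At an unadjusted p under 0.05 the ribosome biogenesis counts, members included, were 37 lower and 1 higher. Over all 11437 tested genes that count was 3372 in either direction. DESeq2 called 33 ribosome biogenesis genes lower and 0 higher, against 2145 lower and 1224 higher of 14248 genes. With the replicate number as a block, edgeR called 0 lower and 0 higher, against 10 lower and 11 higher of all genes. Eif2b3, a subunit of the exchange factor that recycles initiation factor 2, had no count in skin, against 89.2, 62.3 and 71.3 CPM in lymph node. Of the other subunits, looked up after the values were seen, Eif2b1, Eif2b4 and Eif2b5 were at 111, 49.0 and 71.6 CPM in skin library 1 and at 0.191, 0.0955 and 0.191 CPM in skin library 2. Eif2b2 was at 99.8 and 50.5 CPM in skin, against 86.2, 85.7 and 118 CPM in lymph node. Absence of 1 subunit from both skin libraries therefore stood beside absence of 3 others from skin library 2 only.

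Solute carriers and ion channels gave 8 members of 108 genes (7.41%). Gabrr2, a subunit of an ionotropic receptor for GABA, had no count in skin, against 107, 104 and 119 CPM in lymph node. Slc19a1, the reduced folate carrier, had no count in skin, against 58.0, 90.4 and 77.6 CPM in lymph node. Trpm1, a cation channel best known from melanocytes and retina, had no count in skin, against 59.0, 76.8 and 87.3 CPM in lymph node. The 10 melanocyte and Schwann cell markers summed to 9.08 and 0 CPM in skin, against 22.4, 36.6 and 41.9 CPM in lymph node. Of these markers 6 had no count in any library, Dct, Tyr and Tyrp1 among them. Mlana was at 0 in skin, against 0.0701, 0.325 and 0 CPM in lymph node. The part of such cells in the level of Trpm1 was not tested, and the exons of Trpm1 overlap those of another annotated gene. Kcnip2, Slc9b2, Slc39a11, Cacna2d4 and Atp1b1 had lymph node means under 50 CPM. By edgeR's test 24 of 265 tested carrier and channel genes were lower in skin and 6 higher; 8 of the 24 are the members, and 16 of the other 257 were lower (6.23%), against 3.96% of all tested genes that are not members.

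Amino acid, nucleotide and one-carbon metabolism gave 7 members of 104 genes (6.73%), of which Slc19a1 and Mtr, methionine synthase, both serve folate metabolism. Mtr was at 0.0927 and 0.382 CPM in skin, against 27.5, 29.3 and 38.5 CPM in lymph node. Aldh6a1 and Hibadh, consecutive enzymes of valine breakdown, were at 0 and 0 CPM and at 0.0927 and 0 CPM in skin. Their lymph node levels were 25.7, 41.5 and 31.9 CPM for Aldh6a1 and 42.6, 34.3 and 22 CPM for Hibadh. Aldh4a1 of proline breakdown and Dctd, which supplies deoxyuridylate, were also members. In this list 14 of 158 tested genes were lower in skin and 3 higher. Of the 14, 7 are the members. Of the other 151 genes 7 were lower (4.64%), near the 3.96% of all tested genes that are not members. Dhcr7, which completes cholesterol synthesis, was at 0.185 and 0 CPM in skin, against 121, 135 and 92.6 CPM in lymph node; Dhcr7 and Pex3 were the 2 members among 108 lipid, sterol and peroxisome genes (1.85%).

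Glycan synthesis gave 6 members of 98 genes (6.12%). Alg3, a mannosyltransferase that builds the lipid-linked precursor of N-glycans, had no count in skin, against 98.7, 107 and 74.8 CPM in lymph node. St8sia6, a sialyltransferase, had no count in skin, against 42.2, 77.9 and 34.9 CPM in lymph node. Pgm3, needed to make UDP-N-acetylglucosamine, had no count in skin, against 57.8, 34.9 and 33.6 CPM in lymph node. Extl2 and B3gnt5 were also members of the list, and C1galt1c1, the chaperone of the enzyme that extends O-glycans, was a further member at 0.0927 and 0 CPM in skin, against 60.7, 23.9 and 58.2 CPM in lymph node. Members thus occurred in the N-linked, O-linked and glycolipid branches. In this list 15 of 197 tested genes were lower in skin and 5 higher. Of the 15, 6 are the members. Of the other 191 genes 9 were lower (4.71%), near the 3.96% of all tested genes that are not members.

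Several members outside these lists, chosen after their values were seen, act on the T cell surface or in cytotoxicity. Art2b, an ecto-ADP-ribosyltransferase of mouse T cells that activates the ATP receptor P2rx7, had no count in skin, against 46.8, 27.8 and 36.0 CPM in lymph node. P2rx7 itself was at 71.6 and 0 CPM in skin, against 141, 154 and 134 CPM in lymph node, and so was absent from skin library 2 only. Serpinb9, the inhibitor of granzyme B, had no count in skin, against 48.5, 40.6 and 59.3 CPM in lymph node, and its neighbour Serpinb6b had none either, against 49.8, 44.4 and 46.7 CPM in lymph node. Gzmb, the granzyme it blocks, was at 1418 and 1687 CPM in skin, against 50.1, 41.8 and 51.7 CPM in lymph node (log2 fold change 5.08 ± 0.23 SE, adjusted p = 0.0124 by edgeR). Selp, the adhesion molecule P-selectin, had no count in skin, against 20.3, 21.1 and 22.2 CPM in lymph node, and Fcrl1, a receptor best known from B cells, had none either, against 38.4, 43.5 and 26.8 CPM in lymph node. B cell transcripts were highest in lymph node library 3, and their part in the level of Fcrl1 was not tested.

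Of the members, 172 of 182 (94.5%) were annotated as protein coding, against 98.3%, 98.6% and 98.4% of genes absent from skin library 1 only, from skin library 2 only and from neither. The noncoding members included Mir17hg, the host transcript of a microRNA cluster, at 0.0927 and 0 CPM in skin, against 23.5, 30.5 and 30.4 CPM in lymph node. Pvt1, a long noncoding RNA beside Myc, was at 0.649 and 0 CPM in skin, against 37.9, 44.9 and 25.9 CPM in lymph node. Myc itself was at 96.1 and 0.0955 CPM in skin, against 191, 288 and 296 CPM in lymph node, and so was absent from skin library 2 only. Gm11346, a transcribed pseudogene, had no count in skin, against 189, 209 and 211 CPM in lymph node. Exons of 66 members (36.3%) overlap those of another annotated gene, Gimap7, Rtp4, Ssbp2, Satb1, Cd160, Alg3, Ppan and Kbtbd4 among them, against 38.6%, 40.4% and 39.0% in the other sets, and reads of such genes are uncertain. In all 115 members were in at least 1 of the 32 function lists, 90 when the list of genes named only by a clone, locus or family number is left out, and 67 were in none.

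Some functions had few or no members. There were 0 among 167 splicing and RNA helicase genes, 0 among 127 proteasome and chaperone genes, 0 among 89 cilium and centrosome genes, 0 among 85 cell cycle genes, 0 among 51 apoptosis genes and 0 among 22 genes of TGF-beta, Notch and Wnt signalling. As members were 3.1% of all genes, a 0 in lists of 22 to 89 genes tells little. Kinases and phosphatases gave 2 of 199 (1.01%), Ppm1m and Pi4kb. Ubiquitin ligases and adaptors gave 4 of 250 (1.60%), led by Kbtbd4, a substrate adaptor with no count in skin, against 69.6, 122 and 143 CPM in lymph node. Vesicle trafficking gave 4 of 243 (1.65%). In all, 14 of the 31 lists with 10 or more genes were above 3.1%, and these shares were not tested.

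**Figure D2:**
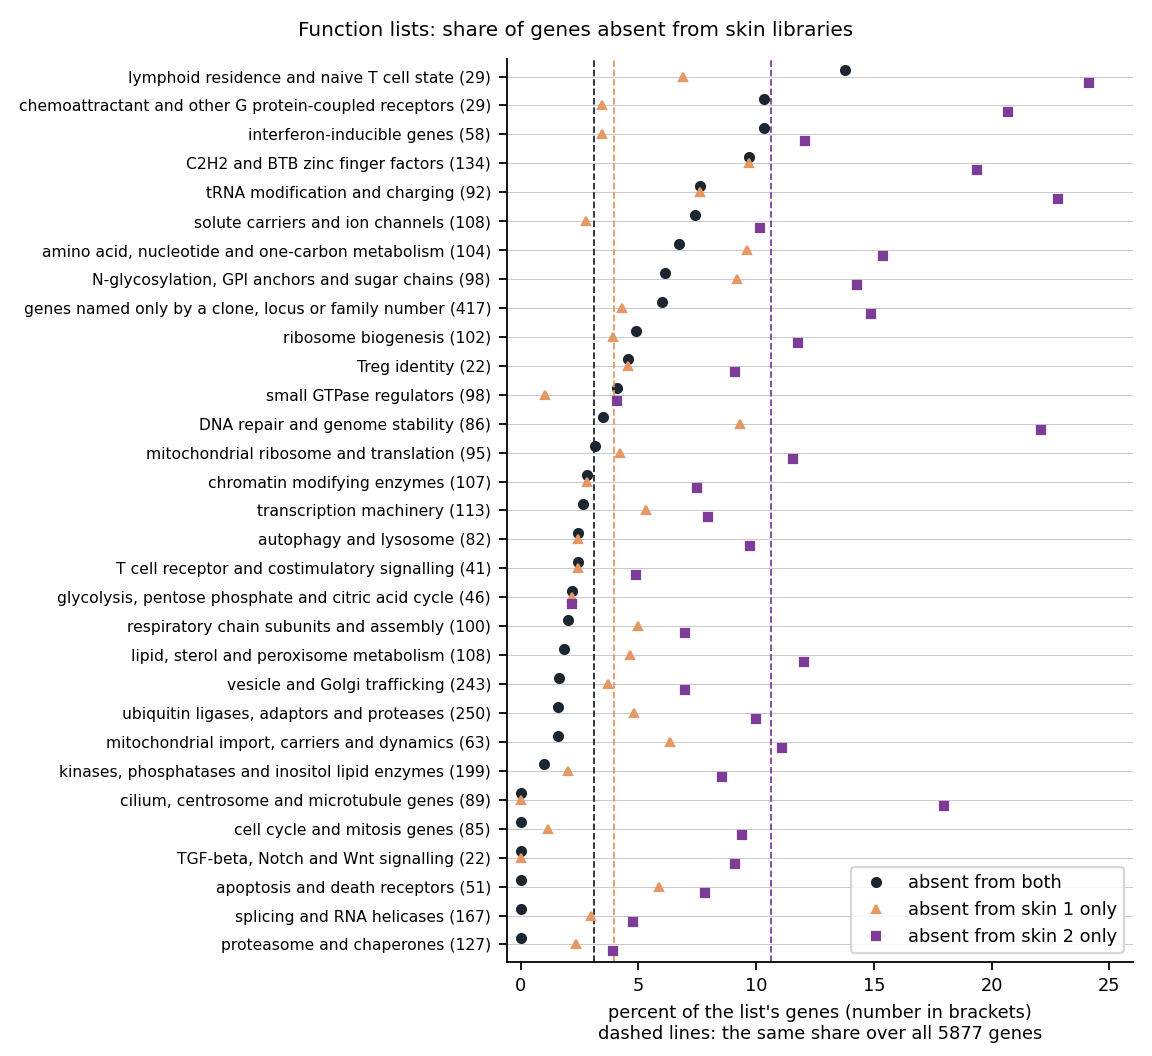
Share of each function list's genes, among those at 20 CPM or more in each lymph node library (their number in brackets), that were absent from both skin libraries (black circles), from skin library 1 only (orange triangles) or from skin library 2 only (purple squares), in percent; dashed lines give the same shares over all 5877 genes, 3.1%, 3.96% and 10.6%. The lymphoid residence list stands highest for absence from both, at 13.8%, and 6 lists stand at 0. The lists were chosen with earlier results of these data known.

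Genes absent from 1 skin library only were more numerous than the members. There were 233 absent from skin library 1 only (3.96%) and 625 absent from skin library 2 only (10.6%), while 4837 (82.3%) were at 1 CPM or more in both. Of the 415 genes absent from skin library 1, 43.9% were also absent from skin library 2 and so members, against 13.7% of all 5877 genes. Of the 807 genes absent from skin library 2, 22.6% were members, against 7.06% of all 5877 genes absent from skin library 1. Leaving skin library 1 out of the rule gives 807 genes and leaving skin library 2 out gives 415, so the size of the set rests on having both. The lymph node libraries showed no such pattern among themselves, since 3 of 6161, 1 of 6068 and 0 of 6125 genes at 20 CPM or more in a pair of them were under 1 CPM in the one left. Between the skin libraries, 1036 of 6343 genes (16.3%) at 20 CPM or more in library 1 were under 1 CPM in library 2, and 554 of 5802 (9.55%) the other way. In the reverse direction, 41 of 4530 genes (0.905%) at 20 CPM or more in both skin libraries were under 1 CPM in every lymph node library.

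The one-library genes were mostly not low in the skin library that kept them. Genes absent from skin library 1 only had a median of 41.0 CPM in skin library 2, 73.5% of their lymph node mean, and 149 of 233 (63.9%) kept at least 50% of it. Genes absent from skin library 2 only had a median of 36.9 CPM in skin library 1, 69.1% of their lymph node mean, and 388 of 625 (62.1%) kept at least 50%. The genes present in both had medians of 90.9% and 91.4% in skin libraries 1 and 2. Slc25a12, a mitochondrial aspartate and glutamate carrier, is an example, at 0.556 and 183 CPM in skin, against 200, 204 and 229 CPM in lymph node. Zfp68 was at 314 and 0 CPM in skin, against 165, 170 and 126 CPM in lymph node. The lymph node mean was reached in the other skin library by 90 of 233 genes absent from skin library 1 only (38.6%) and by 218 of 625 absent from skin library 2 only (34.9%).

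**Figure D3:**
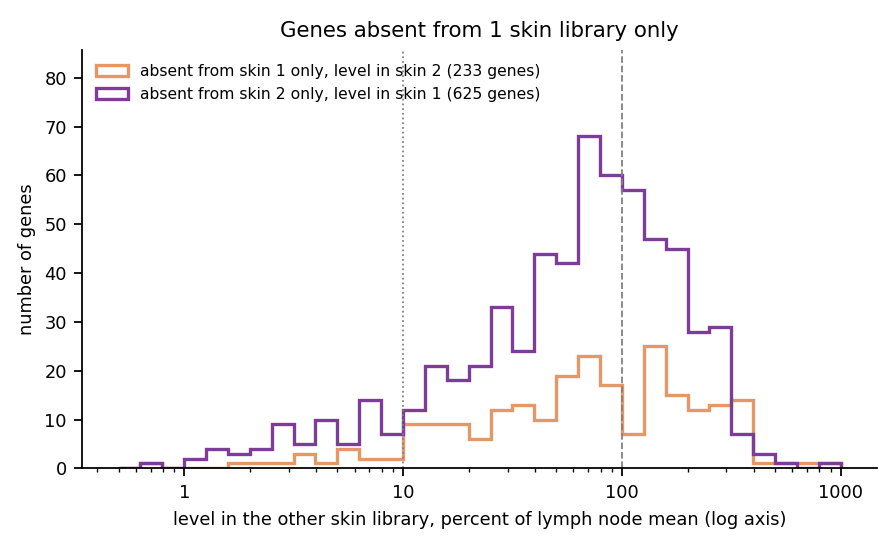
Number of genes by their level in the other skin library, as a percent of the lymph node mean on a logarithmic axis, for the 233 genes absent from skin library 1 only (orange) and the 625 absent from skin library 2 only (purple); the dotted and dashed lines mark 10% and 100%. The highest bars of both lie between 50% and 200%, with medians of 73.5% and 69.1%, and carry a tail of 16 and 64 genes under 10%.

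A tail of 80 of the 858 one-library genes (9.32%) stayed under 10% of their lymph node mean in the library that kept them, 16 in the first set and 64 in the second. T cell genes were among them. Izumo1r, folate receptor 4, a surface marker of mouse Tregs, was at 8.71 and 0.478 CPM in skin, against 1428, 1084 and 1392 CPM in lymph node. Ccr7, the receptor that guides T cells into lymph nodes, was at 11.1 and 0 CPM in skin, against 725, 627 and 840 CPM in lymph node. Ctsw, a lymphocyte protease, was at 0 and 3.34 CPM in skin, against 478, 424 and 491 CPM in lymph node. Cd96, Themis, Evl, Slfn1 and Igfbp4 were in the tail too. In the lymphoid residence list 4 of 9 one-library genes were under 10%, in the T cell receptor list 3 of 3 and in the G protein-coupled receptor list 3 of 7. The autophagy and lysosome list, which holds Ctsw, had 5 of 10, and the small GTPase regulator list 2 of 5. Of the DNA repair list it was 0 of 27, of the zinc finger list 3 of 39, of the tRNA list 2 of 28 and of the cell cycle list 0 of 9. The median level kept was 19.9% of the lymph node mean in the lymphoid residence list and 22.2% in the interferon list, 27% among small GTPase regulators and 41.3% in the autophagy and lysosome list, against 85.2% in DNA repair, 74.0% among zinc fingers and 70.8% over all one-library genes.

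The function lists ranked differently by set. DNA repair had 3 members among 86 genes (3.49%), Fancg, Poli and Neil1, but 8 genes absent from skin library 1 only (9.30%) and 19 from skin library 2 only (22.1%). The cilium list had 0 members but 16 genes absent from skin library 2 only. Zinc fingers (9.70%, 9.70% and 19.4%) and the tRNA list (7.61%, 7.61% and 22.8%) were above the share of all genes in all 3 sets. Other lists were too, the lymphoid residence list among them, with 13.8%, 6.90% and 24.1%. Amino acid metabolism had 6.73%, 9.62% and 15.4%, and glycan synthesis 6.12%, 9.18% and 14.3%. Interferon genes were at 10.3%, 3.45% and 12.1%, and carriers and channels at 7.41%, 2.78% and 10.2%, so these lists were above the share of all genes for absence from both and near or below it for absence from 1. None of these differences between sets was tested.

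Level moved with membership. Of genes with a lymph node mean of 20 to 50 CPM, 7.67% were members, and the share was 2.17% from 50 to 100 CPM, 0.882% from 100 to 200 CPM, 0.459% from 200 to 400 CPM and 0.510% at 400 CPM or more. The one-library sets had the same slope, with 20.3% of genes of 20 to 50 CPM and 1.53% of those at 400 CPM or more absent from skin library 2 only. The median lymph node mean was 38.6 CPM for members, against 49.0 and 48.4 CPM for genes absent from skin library 1 only and skin library 2 only and 94.1 CPM for genes present in both. Members also had shorter transcripts, with a median exonic length of 3852.5 bases, against 4335, 4644.5 and 4922 bases, while the median transcript GC content was 48.0%, against 49.9%, 48.4% and 48.4%. Per kilobase, the median lymph node level was 10.5 CPM per kb for members, against 12.2, 10.8 and 20.1 CPM per kb. The median coefficient of variation among lymph node libraries was 20.4% for members, against 18.3%, 20.3% and 18.2%.

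**Figure D4:**
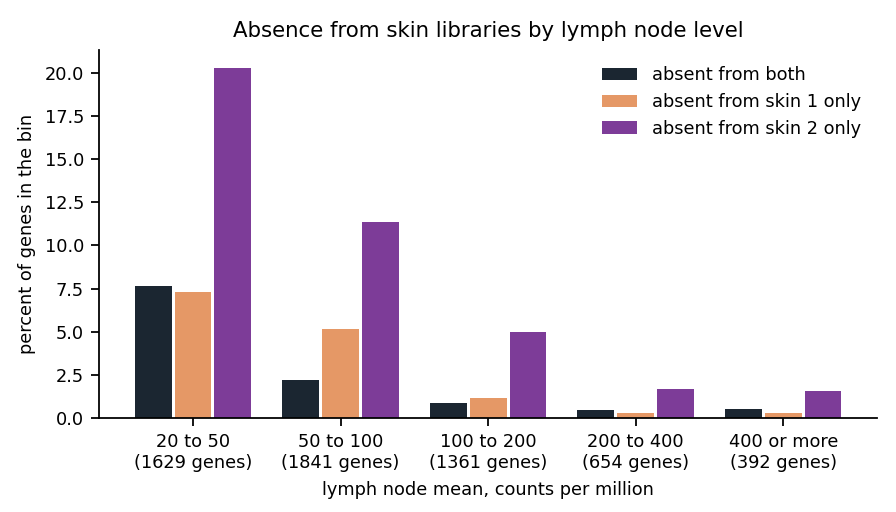
Percent of genes absent from both skin libraries (black), from skin library 1 only (orange) and from skin library 2 only (purple), in bins of lymph node mean CPM, with the number of genes under each bin. All 3 shares are highest in the bin of 20 to 50 CPM, at 7.67%, 7.31% and 20.3%, and none exceeds 1.7% from 200 CPM on.

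At a lymph node mean of 100 CPM or more, 17 of 2407 genes (0.706%) were members. The T cell lists held several of them: 2 of 19 genes of the lymphoid residence list at that level, 2 of 16 G protein-coupled receptors, 2 of 41 interferon genes and 1 of 7 Gimap genes. Lists outside the T cell lists held some too: 1 of 36 carriers and channels, 1 of 45 lipid, sterol and peroxisome genes and 1 of 86 ubiquitin ligases and adaptors. Zinc finger, tRNA, ribosome biogenesis, glycan and amino acid lists had 0 members at that level, of 27, 32, 49, 28 and 37 genes. All members of these lists had lymph node means under 100 CPM. With 0.706% over all genes, a 0 in lists of that size tells little.

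In the promoters, 146 of 182 members (80.2%) had an entry. So did 505 of 625 genes absent from skin library 2 only (80.8%) and 3911 of 4837 genes present in both (80.9%). Among genes absent from skin library 1 only 179 of 233 (76.8%) did, a lower coverage, so the values of that set are given without a comparison. They were a median of 19 CpG dinucleotides, a GC box in 57.0% of promoters, the ETS motif in 36.3%, TCF/LEF in 12.3% and the interferon response motif in 1.68%. The median number of CpG dinucleotides per promoter was 15.5 for members, against 20 for genes absent from skin library 2 only, 22 for genes present in both and 7 over all 27025 promoters. A GC box was found in 55.5% of member promoters, against 63.0% and 67.4% in those sets and 35.9% of all promoters. The ETS motif was found in 29.5% of member promoters, against 34.3% and 35.4% and 15.2% of all promoters, and the TCF/LEF motif in 17.1%, against 10.1% and 12.5% and 16.2% of all. The interferon response motif was found in 4.11% of member promoters, which is 6 promoters, against 2.57% and 3.48% and 3.49% of all. None of these promoter differences was tested.

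By edgeR's test 881 of 11437 genes differed between skin and lymph node (7.7%), 275 higher in skin (2.4%) and 606 lower (5.3%). All 182 members were tested and 160 were called lower and 0 higher, with adjusted p-values of 0.0124 to 0.0901, but the same contrast chose them and nothing is read from this count. All 182 were called lower by DESeq2 and by limma-voom, 4 with the replicate number as a block, and none by edgeR on leaving out lymph node library 1, 2 or 3, where 2361 to 2484 genes of either direction still had an unadjusted p under 0.05. Of the 233 genes absent from skin library 1 only, 2 were called lower, Ctsw and Usp10. Of the 625 absent from skin library 2 only, 5 were, Izumo1r, Slc35d1, Pank4, Pigu and Neu3. Each of these 7 genes was under 10% of its lymph node mean in both skin libraries.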

How the data were processed

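As deposited, the data are raw counts of reads, 1 row per gene symbol, for 2 skin and 3 lymph node Treg libraries. Its header is shifted by 1 cell, so columns were taken by position. The authors worked on build mm10 and used HTSeq 0.6.1, SAMtools 0.1.19.0, Bowtie2 2.1.0.0, TopHat2 2.0.12 and CASAVA 1.8.2, per the submitters' processing notes; neither options, annotation nor strand setting were stated in the sources used. The 5 HTSeq summary rows were left out: reads not aligned uniquely were 64.5 to 72.0% of all counts, reads outside genes 8.35 to 14.0%, and 19.3 to 21.7% fell in genes. Genes that share sequence or exons with others are therefore uncertain, and without strand a gene and its antisense partner cannot be told apart. No other value column was left unused.

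CPM was computed from the counts as deposited, per library sum of gene counts. The contrast of skin minus lymph node was fitted with edgeR 4.0.16 (quasi-likelihood F test, TMM, filterByExpr with a minimum count of 10) with tissue as the only term, Benjamini-Hochberg adjustment over all genes tested and a threshold of 0.05; DESeq2 1.42.0 and limma 3.58.1 (voom) were alternatives. The edgeR script was tested on simulated data. Gene positions, lengths and biotypes came from GENCODE M21 on GRCm38, matched by symbol for 22881 of 24084 genes and by an older symbol for 812. Python 3.11.15 with pandas 2.3.3 was used for the rule and the shares. Floors were 3 counts over the libraries of a group, and ratios of 1 to 3 counts carry an exact 95% interval.

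The members and the function lists were chosen with earlier results of these data known. Named genes were the 12 members highest in lymph node, up to 3 members and up to 2 one-library genes highest in lymph node per list, the 6 highest one-library genes, the genes at the thresholds and the members in marker lists; others were chosen after their values were seen. The alternatives were other scalings, filters, tests, thresholds, a depth thinned to the smallest library, genes without exon overlap, each library left out, and the replicate block. Some genes that this rule names are not reported here.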

Additional observations from a re-analysis of the deposited data

Results flagged for a closer look

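Reads outside annotated genes made up 14.0% and 12.5% of all counts in skin libraries 1 and 2, against 8.35%, 11.6% and 11.1% in lymph node libraries 1, 2 and 3. This summary row of the table enters no comparison above, and both skin libraries stood above the highest lymph node library. Its part in the absence of the 182 genes was not tested.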

How the results depend on the processing

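The number of genes absent from both skin libraries, 182, was 176 and 173 with TMM and DESeq2 scaling of CPM, 182 at a depth thinned to the smallest library, and 164 and 213 with skin limits of 0.5 and 2 CPM. It was 379 and 38 with lymph node minimums of 10 and 50 CPM, 292 with a skin limit of 5 CPM, 95 with a skin limit of 0 counts, 116 among genes without exon overlap, and 206 to 807 when a library was left out, 807 without skin library 1 and 415 without skin library 2. The 233 genes absent from skin library 1 only were 394, 72 and 143 with minimums of 10 and 50 CPM and without exon overlap, and the 625 absent from skin library 2 only were 206, 361 and 372 with a minimum of 50 CPM, a limit of 0 counts and without exon overlap. Fewer or more genes pass these limits by construction. The number of lists above the share of all genes, 14, was 13 to 15 across scalings, thresholds and libraries left out, 15 among genes with a lymph node mean under 100 CPM, and 9 among genes with a lymph node mean of 100 CPM or more, the last a pair of alternatives added after the data were seen. The 881 genes called by edgeR were 315 with no low-count filter, 3369 with DESeq2, 2231 with limma-voom, 21 with the replicate number as a replicate block, and 0 to 6065 when a library was left out: 0 without any 1 lymph node library, 6065 without skin library 1 and 4904 without skin library 2, where the lone skin library is assumed to vary like the lymph node libraries. The cause was not tested. With a filter of 20 CPM in each library of a tissue, 345 were higher in skin and 319 lower, against 275 and 606. Libraries of skin and lymph node share only a number: deviations of same-numbered libraries had correlations of -0.0252 and -0.0236 for numbers 1 and 2.

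With 2 skin libraries that differ from each other, absence from both rests on 2 values per gene, and 1 count was worth 0.0927 and 0.0955 CPM. A level under that of 3 counts, 0.278 and 0.287 CPM per skin library, can give no count and was not reliably detectable. Low lymph node levels went with absence from either skin library, and their part in it was not tested.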
